A study of Mus musculus with 16 samples.

Results

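The imprinted Dlk1-Dio3 region of mouse chromosome 12 holds one of the largest miRNA clusters of the mouse genome, and its miRNAs were followed here in dorsal skin of mice with and without the nuclear receptor PPARβ/δ, before and after chronic UVB irradiation. The cluster was chosen by genomic position: it holds every mouse miRNA on the array whose target lies at chr12:110801929-110981994 of the mm9 build. These were 73 miRNA strands of 577 miRNAs measured, of which 567 were mouse miRNAs and 10 were viral. Attention to the cluster was selected on measured values, namely the lower signals of miR-127, miR-136 and miR-379 in irradiated Ppard-/- skin than in irradiated Ppard+/+ skin, so that comparison and the difference between the UV effects of the genotypes are given below as descriptions without a test.

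In all, 16 skin RNA samples were hybridised to 1-colour miRNA arrays, 4 per group, and the study's methods give 4 animals per group. The groups were Ppard+/+ and Ppard-/- mice without irradiation, and the same genotypes after UVB at 70 mJ/cm2, 3 times a week for 12 weeks. All mice were young adult hairless females of a mixed SKH1, C57/Bl6 and SV129 background, the non-irradiated animals were age-matched and handled in the same way, and the irradiated skin was taken free of lesions. The labels name no promoter or cell type that limits the Ppard deletion, and whole skin was profiled, so that fewer cells of a type and less RNA per cell cannot be told apart. All irradiated samples lay on 1 slide and all non-irradiated samples on the other, so that irradiation and slide cannot be told apart. On the slide of the irradiated samples the Ppard+/+ arrays filled row 1 and the Ppard-/- arrays row 2, so that genotype and row cannot be told apart after UV. The other slide held both genotypes in both rows. Median local background was 62.5 to 65 on the non-irradiated slide and 118 to 129 on the irradiated slide. Detected miRNAs numbered 216 to 266 and 184 to 206 per array, in that order. The dimmest detected miRNA had a raw signal of 2.40 to 5.51 on the former and 9.83 to 15.2 on the latter.

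In the Dlk1-Dio3 region, the protein-coding genes Dlk1, Rtl1 and Dio3 are transcribed from the paternal chromosome. The non-coding RNAs Meg3, Rian, Mirg and the antisense transcript of Rtl1 come from the maternal chromosome, and the miRNAs are cut from these maternal transcripts. A methylated control region between Dlk1 and Meg3 sets this pattern. The miRNAs are abundant in embryo, placenta and brain, and miR-127 and miR-136, which lie antisense to Rtl1, direct the cleavage of its mRNA. All 73 targets were annotated to the same strand. By position they fell into a first block of 22 strands at chr12:110801929-110856536 (mm9), miR-882 on its own, and a last block of 50 strands packed into 34.7 kb at chr12:110947280-110981994. According to RefSeq gene spans (GRCm38, used for names only), which were looked up for the 66 strands matched to a RefSeq miRNA, 2 strands lay in Meg3, 17 within the Rtl1 span, 2 in Rian and 11 in Mirg.

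Of the 73 strands, 55 were not detected on any array, 18 were detected on at least 1 array, and 2 (miR-487b and miR-494) on all 16. The tests covered 228 miRNAs, those with detection on every array of some group. Only 9 cluster members passed this filter: miR-770-3p, miR-127, miR-136 and miR-370 of the first block, and miR-379, miR-494, miR-300, miR-487b and miR-134 of the last block. The mature sequences of these members show which seeds, the bases that pair with target mRNAs, a reader would search for. They are given from RefSeq (GRCm38.p6), 5′ to 3′, with the seed, bases 2 to 8, in capitals. No sequence was matched for miR-487b.
miR-127: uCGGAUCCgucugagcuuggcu
miR-136: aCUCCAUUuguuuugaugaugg
miR-379: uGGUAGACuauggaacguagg
miR-300: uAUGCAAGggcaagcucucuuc
miR-494: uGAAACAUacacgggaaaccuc
miR-370: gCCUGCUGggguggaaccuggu
miR-134: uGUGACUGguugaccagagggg
miR-770-3p: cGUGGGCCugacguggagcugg

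Among the 66 members matched to a sequence, only miR-376c* and miR-376b* shared a seed, and neither was detected. The closest relative of miR-300 in sequence was miR-381, a cluster member that differed from it by 3 edits and was not detected on any array. The median GC content was 47.6% for the 15 matched members that were detected at least once and 47.8% for the 51 that were not. miR-381 and 3 members that are named further down for their signals after UV read as follows, with the seed again in capitals.
miR-381: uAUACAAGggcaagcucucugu
miR-376a: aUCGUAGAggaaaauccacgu
miR-411: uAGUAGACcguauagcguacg
miR-154: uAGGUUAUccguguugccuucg

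miR-127, the best-known miRNA of the cluster, has its target at chr12:110831102-110831119 within the Rtl1 span. Values are normalized signals in array units, after quantile normalization over the 16 arrays. In non-irradiated Ppard+/+ skin the 4 arrays read 43.0, 41.2, 22.8 and 33.1. Non-irradiated Ppard-/- skin gave 55.4, 26.3, 38.3 and 33.1. The 2 genotypes thus overlapped widely before irradiation. After UV, the Ppard+/+ arrays read 52.8, 50.4, 66.2 and 52.0, all above every non-irradiated array of that genotype. The irradiated Ppard-/- arrays read 17.9, 25.7, 20.8 and 21.8, all below every other Ppard-/- array, and miR-127 was detected on 1 of these 4 against all 12 of the remaining arrays. Means were 55.4 ± 7.31 in irradiated Ppard+/+ and 21.5 ± 3.24 in irradiated Ppard-/- skin (SD, n = 4).

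miR-136, separated from miR-127 by the miR-434 hairpin and lying at chr12:110833541-110833562, was at or under the detection limit in most non-irradiated samples. Ppard+/+ skin read 13.8, 14.0, 4.70 and 12.8 without UV, with 1 array detected. Ppard-/- skin read 17.9, 12.6, 9.75 and 7.16 without UV, with 2 arrays detected. All 4 irradiated Ppard+/+ arrays were detected and stood apart from the rest, at 36.4, 30.9, 32.4 and 25.7. The irradiated Ppard-/- arrays read 15.2, 17.5, 10.4 and 19.9, with no detection. Those last values were not below the non-irradiated ones of the same genotype: the mean was 15.8 ± 4.03 against 11.9 ± 4.60 (SD, n = 4).

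miR-379, the first miRNA of the last block at chr12:110947280-110947295, was also brightest in irradiated Ppard+/+ skin. Without UV, Ppard+/+ arrays read 24.7, 25.7, 14.2 and 15.4, and Ppard-/- arrays read 29.0, 13.4, 19.9 and 11.5. After UV, Ppard+/+ arrays read 53.9, 45.5, 53.9 and 43.0, above all 12 other arrays. Irradiated Ppard-/- arrays read 22.8, 23.1, 21.8 and 29.0 and none was called detected, although 3 of the 4 non-irradiated Ppard-/- arrays were. Means of the irradiated groups were 49.1 ± 5.67 in Ppard+/+ and 24.2 ± 3.25 in Ppard-/- skin (SD, n = 4).

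miR-300, also in the last block (chr12:110962577-110962594), was dimmer, with irradiated Ppard+/+ skin again the highest group but irradiated Ppard-/- skin the lowest. Without UV, Ppard+/+ arrays read 15.0, 17.5, 11.9 and 11.9, and Ppard-/- arrays read 19.9, 15.4, 19.4 and 15.4. The irradiated Ppard+/+ arrays read 23.7, 21.2, 25.2 and 19.4. In irradiated Ppard-/- skin the values were 10.1, 8.34, 8.09 and 9.20, the lowest of all 16 arrays, and none was detected. The opposite strand of the same hairpin, miR-300*, was never detected and read 4.70 to 12.4 in irradiated Ppard-/- and -0.66 to 4.62 in irradiated Ppard+/+ skin.

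**Figure D1:**
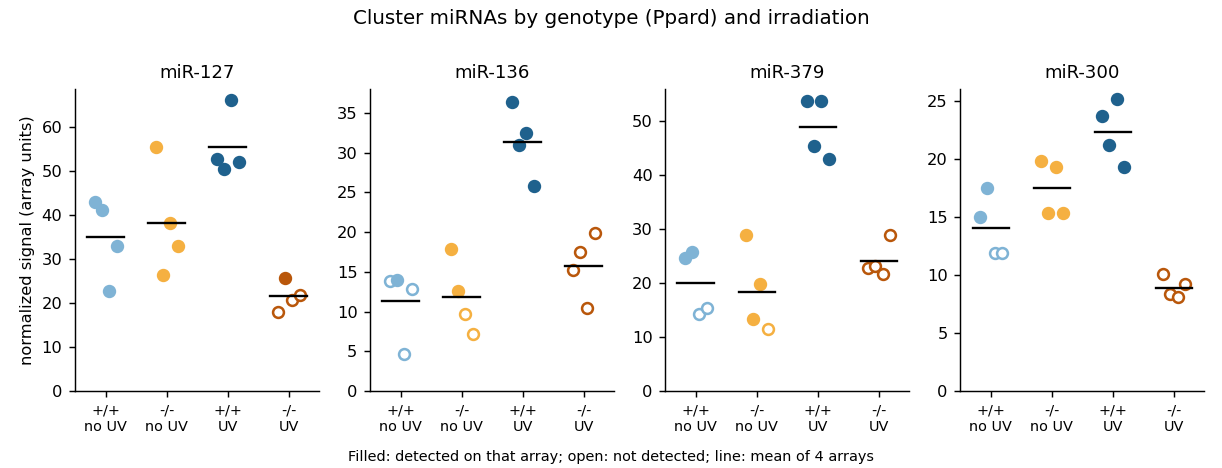
Normalized signal (array units, linear axes from 0) of miR-127, miR-136, miR-379 and miR-300 on each array, by Ppard genotype and irradiation, with 4 arrays per group. Filled dots were detected, open dots were not, and lines are means; in all 4 panels the irradiated +/+ arrays lie above the irradiated -/- arrays without overlap.

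Between the irradiated genotypes, the fitted difference of Ppard-/- minus Ppard+/+ skin was -1.34 for miR-127, -1.02 for miR-379, -0.68 for miR-136 and -0.20 for miR-300, with SEs of 0.23, 0.15, 0.07 and 0.06. These are differences of log2 signals, with any signal lower than 19.4 array units set to 19.4 (the floor). That shrinks the differences of dim miRNAs. It also shrinks the SEs of miR-136 and miR-300, for which whole groups stood at the floor. For miR-127 the fitted difference corresponded to a 2.53-fold lower signal. The 3 others were not detected in irradiated Ppard-/- skin, so a detection bound was used. It sets the mean log2 signal of the bright group against, on each array of the dim group, the higher of the dimmest detected signal and the miRNA's own. For miR-379 the miRNA's own signals were the higher ones, so its bound equals the fitted fold of 2.03 and is an estimate, not a minimum. For miR-136 they were the higher ones on most arrays, so its 2.01-fold is also close to an estimate. For miR-300 the bound put irradiated Ppard+/+ skin at least 1.60-fold higher. With slide row as a covariate, estimated on the non-irradiated slide, the differences were -0.98, -0.70 and -0.68 for miR-127, miR-379 and miR-136. Only miR-136 passed the threshold, but all its non-irradiated arrays lay under the floor. Its row term was therefore 0, and this fit could not adjust it for row. With normexp background correction and an offset of 50, which shrinks dim signals, they were -0.26, -0.22 and -0.15, and only miR-127 passed. The remaining members, miR-134, miR-370, miR-487b, miR-494 and miR-770-3p, lay between -0.20 and 0.21. Of the 9 members tested, 3 passed an adjusted p of 0.05, beside 2.19% of all 228 miRNAs in this comparison; as the cluster was chosen on these values, nothing is read from that count. The median difference was -0.20 over the 9 members and 0 over all miRNAs tested.

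The array carried 2 probes each for these miRNAs. For miR-127 and miR-300 both probes had all irradiated Ppard-/- arrays below all irradiated Ppard+/+ arrays. For miR-136 and miR-379 the brighter probe did so and the dimmer probe overlapped. The brighter miR-127 probe averaged 44.1 ± 5.30 in irradiated Ppard+/+ and 18.7 ± 3.74 in irradiated Ppard-/- skin (SD, n = 4, raw probe signals scaled to a common level).

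Without irradiation, none of the 9 cluster members differed between the genotypes by limma at an adjusted p of 0.05, beside 0% of all 228 miRNAs. At an unadjusted p of 0.05, 0 members and 36 of the 228 miRNAs passed. The differences of Ppard-/- minus Ppard+/+ ranged from -0.05 for miR-134 to 0.29 for miR-370 on the log2 scale, with limma adjusted p-values of 0.640 to 1. Intervals were wide for some members. For miR-127 the 95% interval of the difference ran from -0.38 to 0.61, and for miR-494 from -1.14 to 1.05. For miR-136 the difference was 0 because all 8 non-irradiated arrays lay under the floor. Within the rows of the non-irradiated slide, with 2 arrays of each genotype per row, the miR-127 difference was -0.14 in row 1 and 0.37 in row 2. Between the rows of that slide, row 2 minus row 1, miR-127 differed by -0.62 within Ppard+/+ and by -0.10 within Ppard-/- skin. For miR-379 these values were -0.38 and -0.27. Row as a covariate, estimated on this slide, took the differences between the irradiated genotypes to -0.98 for miR-127 and -0.70 for miR-379. Neither then passed the threshold. The part of row on the irradiated slide itself was not tested, because each genotype filled 1 row there.

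In Ppard+/+ skin, miR-379, miR-136 and miR-300 were higher on every irradiated array than on every non-irradiated one. The fitted differences, on the log2 scale with the floor, were 1.14 for miR-379 (SE 0.15) and 0.68 for miR-136 (SE 0.07). Both miRNAs passed the detection filter only through irradiated Ppard+/+ skin, the group where they were high, so these values are given without a test. miR-300, which passed also through non-irradiated Ppard-/- skin, gave 0.20 (SE 0.06, limma adjusted p = 0.0335). The floor put all non-irradiated Ppard+/+ and all irradiated Ppard-/- arrays at 1 value, so this SE and p understate the spread between samples. With only the 2 groups compared the limma adjusted p was 0.139. miR-379, miR-136 and miR-300 were the 3 of 9 members past an adjusted p of 0.05, beside 16.2% of all miRNAs tested. For the filter reason given, nothing is read from that count. For miR-127 the difference was 0.70 (SE 0.23, limma adjusted p = 0.0536), which missed the threshold although the arrays did not overlap. No member fell past the threshold. For miR-487b the difference was -0.81 (limma adjusted p = 0.0606). The median over the 9 members was 0.10, and over all miRNAs it was 0. The call of miR-300 was lost when any of the 8 non-irradiated arrays was left out and was kept when an irradiated one was. It was also lost with both upper-quartile scalings (limma adjusted p = 0.115 and 0.129) and with normexp (0.174), and held in 4 of 10 alternatives in all. The irradiated Ppard+/+ arrays are the same ones on which the cluster was selected, so these values are no independent support of the difference between genotypes.

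In Ppard-/- skin, 4 of the 9 members were lower after UV past an adjusted p of 0.05 and none was higher. Among all miRNAs tested, 29.8% passed in either direction. The 4 were miR-127 at -0.76 (SE 0.23, limma adjusted p = 0.0275), miR-370 at -0.77 (SE 0.26, limma adjusted p = 0.0427), miR-487b at -0.81 (SE 0.28, limma adjusted p = 0.0431) and miR-770-3p at -0.32 (SE 0.11). miR-770-3p passed the filter only through the non-irradiated groups, where it was high, so its value is given without a test and nothing is read from the count of 4. The irradiated Ppard-/- arrays are among those on which the cluster was selected, with low miR-127, so its fall is no independent support either. None of the 4 calls held in every fit that left out 1 array: miR-127 was called in 12 of 16 such fits, miR-370 in 9, miR-770-3p in 9 and miR-487b in 6. miR-127 lost its call without non-irradiated Ppard-/- replicate 1 or 3 or irradiated Ppard-/- replicate 1 or 3. miR-136 and miR-379 gave differences of 0.01 and 0.16 (limma adjusted p = 0.983 and 0.454), and the sign of both turned under other scalings. miR-300 gave -0.01 with the floor (limma adjusted p = 0.981), as 7 of its 8 Ppard-/- values lay under it, and -0.96 with a floor of 1 signal unit (limma adjusted p = 0.000375). By the detection bound, miR-300 was at least 1.25-fold lower after UV in this genotype.

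**Figure D2:**
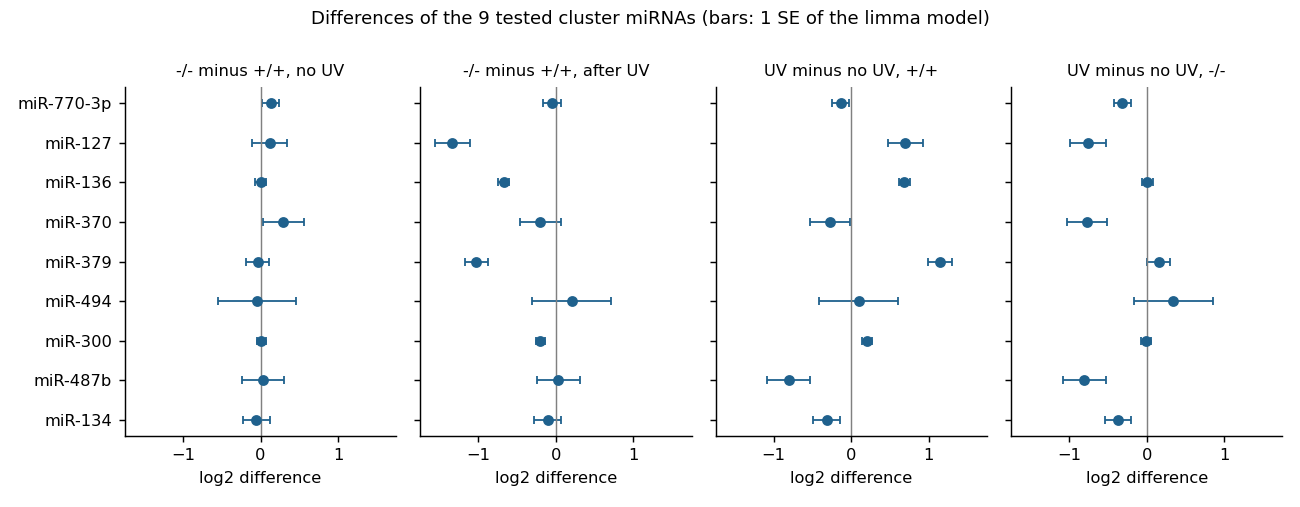
Log2 differences of the 9 tested cluster miRNAs, in genomic order from top to bottom, for 4 comparisons; dots are limma estimates and bars 1 SE, 4 arrays per group. miR-127, miR-136 and miR-379 lie left of 0 in the comparison of irradiated genotypes (-1.34, -0.68 and -1.02) and right of 0 for UV in +/+ skin (0.70, 0.68 and 1.14).

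The difference between the UV effects, that in Ppard+/+ minus that in Ppard-/- skin, was 1.45 for miR-127 (SE 0.32), 0.99 for miR-379 (SE 0.21) and 0.68 for miR-136 (SE 0.10). These 3 of 9 members passed an adjusted p of 0.05, beside 2.19% of all miRNAs, and are given as a description for the reason above. For miR-300 the value was 0.21, for miR-370 0.49, and for miR-487b 0.00, with a 95% interval of -0.84 to 0.85. Leaving out 1 array ended the call of miR-136 for 3 of the 16 arrays, that of miR-379 for each of the 8 irradiated arrays, and that of miR-127 for 12 arrays.

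miR-494 dominated the signal of the cluster and did not follow miR-127. Its target lies in the last block at chr12:110953584-110953598. The 4 arrays read 1193, 743, 3393 and 1901 in non-irradiated Ppard+/+ and 3393, 872, 1773 and 965 in non-irradiated Ppard-/- skin. After UV they read 2200, 1559, 1693 and 1284 in Ppard+/+ and 1357, 3393, 2108 and 1357 in Ppard-/- skin. The repeated values come from quantile normalization, which gives equal ranks equal signals. The spread within groups exceeded every difference between groups, with limma adjusted p-values of 0.648 to 1 in the 3 comparisons tested. Within non-irradiated Ppard+/+ skin, row 2 exceeded row 1 by 1.43 on the log2 scale. miR-494 made up 69.7 to 96.1% of the summed cluster signal on the 16 arrays.

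miR-487b (chr12:110965596-110965613) was the other member detected on all 16 arrays. Non-irradiated arrays read 62.2, 97.3, 101 and 108 in Ppard+/+ and 72.9, 137, 80.5 and 90.3 in Ppard-/- skin. Irradiated arrays read 63.4, 70.9, 38.3 and 41.2 in Ppard+/+ and 68.3, 35.6, 59.1 and 53.9 in Ppard-/- skin. After UV the means were 53.5 ± 16.2 in Ppard+/+ and 54.2 ± 13.8 in Ppard-/- skin (SD, n = 4), with a 95% interval of -0.57 to 0.63 for the log2 difference. miR-370 (chr12:110856522-110856536), which lies in the Rian span at the end of the first block, read 29.0, 50.4, 72.9 and 40.2 in non-irradiated Ppard+/+ skin and 80.5, 47.8, 60.2 and 41.9 in non-irradiated Ppard-/- skin. After UV it read 38.3, 35.6, 43.0 and 33.9 in Ppard+/+ and 30.4, 27.7, 32.4 and 41.9 in Ppard-/- skin, and 1 array of the latter group was not detected.

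miR-770-3p, from a hairpin in the Meg3 gene at the start of the cluster (chr12:110801963-110801975), was detected on all 8 non-irradiated arrays and on none of the 8 irradiated ones. It read 16.9, 21.8, 25.2 and 22.2 in non-irradiated Ppard+/+ and 30.4, 19.4, 24.2 and 23.7 in non-irradiated Ppard-/- skin. After UV it read 14.2, 8.09, 22.2 and 8.76 in Ppard+/+ and 10.6, 16.4, 9.89 and 15.2 in Ppard-/- skin. The loss of detection went with the higher background of the irradiated slide, and its part in the result was not tested. By the detection bound, miR-770-3p was at least 1.68-fold lower after UV in Ppard-/- skin. In Ppard+/+ skin the bound was at least 1.5-fold, but the arrays overlapped and the fitted difference was -0.14 (log2). As miR-770-3p passed the filter only through the non-irradiated groups, this value too is given without a test. miR-134, a regulator of dendritic spine size in neurons (chr12:110972364-110972376), was detected on all 8 non-irradiated arrays and on 1 irradiated array. Its means without UV were 27.7 ± 8.81 in Ppard+/+ and 26.7 ± 3.63 in Ppard-/- skin, and after UV 20.8 ± 5.21 and 19.2 ± 3.58 (SD, n = 4). miR-134 passed the filter only through the non-irradiated groups, where it was high, so its differences after UV are given without a test. In Ppard-/- skin the fitted difference after UV was -0.37 (log2). By the detection bound it was 1.38-fold lower, close to an estimate, as the miRNA's own signals were the higher ones on most irradiated arrays. The other strands of these hairpins, miR-770-5p, miR-127* and miR-136*, were not detected on any array.

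**Figure D3:**
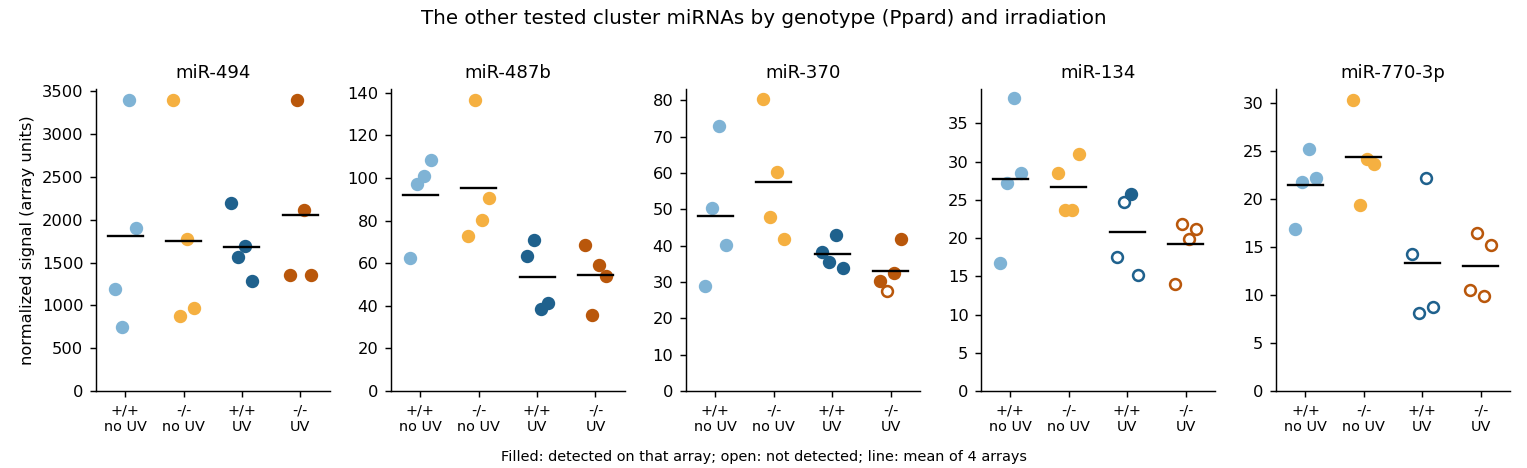
Normalized signal (array units, linear axes from 0) of miR-494, miR-487b, miR-370, miR-134 and miR-770-3p on each array, by Ppard genotype and irradiation, with 4 arrays per group. Filled dots were detected, open dots were not, and lines are means; in each panel the irradiated genotypes overlap.

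Taking the cluster as a whole, irradiated Ppard-/- skin had the fewest detected members. The number of members detected was 6 to 14 per array in non-irradiated Ppard+/+, 7 to 17 in non-irradiated Ppard-/-, 7 to 8 in irradiated Ppard+/+ and 3 on each of the 4 irradiated Ppard-/- arrays. All miRNAs together numbered 195 to 206 detected in irradiated Ppard+/+ and 184 to 194 in irradiated Ppard-/- skin. The summed signal of the 72 members other than miR-494 was 274 to 323 in non-irradiated Ppard+/+, 268 to 382 in non-irradiated Ppard-/-, 356 to 418 in irradiated Ppard+/+ and 129 to 184 in irradiated Ppard-/- skin. The first block summed to 104 to 156 in irradiated Ppard+/+ and 11.3 to 68.1 in irradiated Ppard-/- skin, and the last block without miR-494 to 225 to 273 and 90.6 to 115. Probe sets near background can give negative signals, which enter these sums. With negative signals set to 0 the sums over the 72 members were 489 to 558 and 296 to 337 in the irradiated groups. The groups did not overlap either way, but the ratio of the means moved from 0.387 to 0.597. The cluster was selected on the irradiated groups, and miR-127, miR-136 and miR-379 enter these counts and sums. The counts and sums are therefore descriptions and no independent support of a difference between genotypes.

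**Figure D4:**
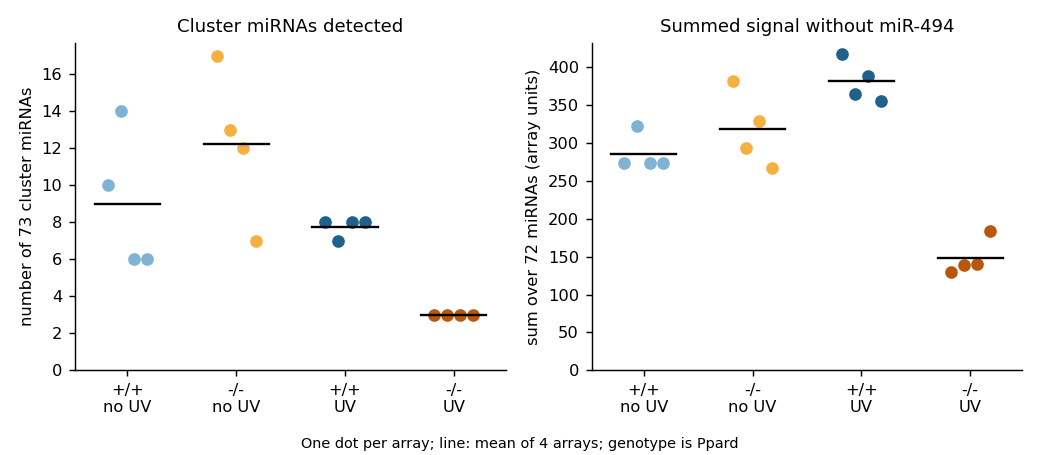
Number of the 73 cluster miRNAs detected (left) and summed normalized signal of the 72 members other than miR-494 in array units (right), 1 dot per array with means as lines. The 4 irradiated -/- arrays have 3 detected members each and sums of 129 to 184, below every other array. The cluster was selected on the irradiated groups, so the values are a description.

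Counting every member, detected or not, 15 of the 73 had all irradiated Ppard-/- arrays below all irradiated Ppard+/+ arrays, beside 4.68% of all 577 miRNAs, and 1 member (miR-300*) had them above, beside 1.56%. This is the comparison on which the cluster was selected, and nothing is read from the count. The 15 were spread over both blocks, 5 in the first and 10 in the last. They were miR-337-3p, miR-127, miR-434-5p, miR-434-3p and miR-136, and then miR-379, miR-411, miR-411*, miR-329, miR-667, miR-376a, miR-300, miR-154, miR-377 and miR-410. Dim members were among them. miR-376a, never called detected, read 15.2 to 19.4 in irradiated Ppard+/+ and 3.51 to 10.3 in irradiated Ppard-/- skin. For miR-411, the neighbour of miR-379, these ranges were 16.0 to 29.6 and 4.17 to 11.9. miR-154 read 20.3 to 27.1 and 10.3 to 15.2. Without irradiation 1 member was higher (beside 2.08% of all miRNAs) and 1 lower (beside 1.56%) in Ppard-/- than in Ppard+/+ skin without overlap.

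**Figure D5:**
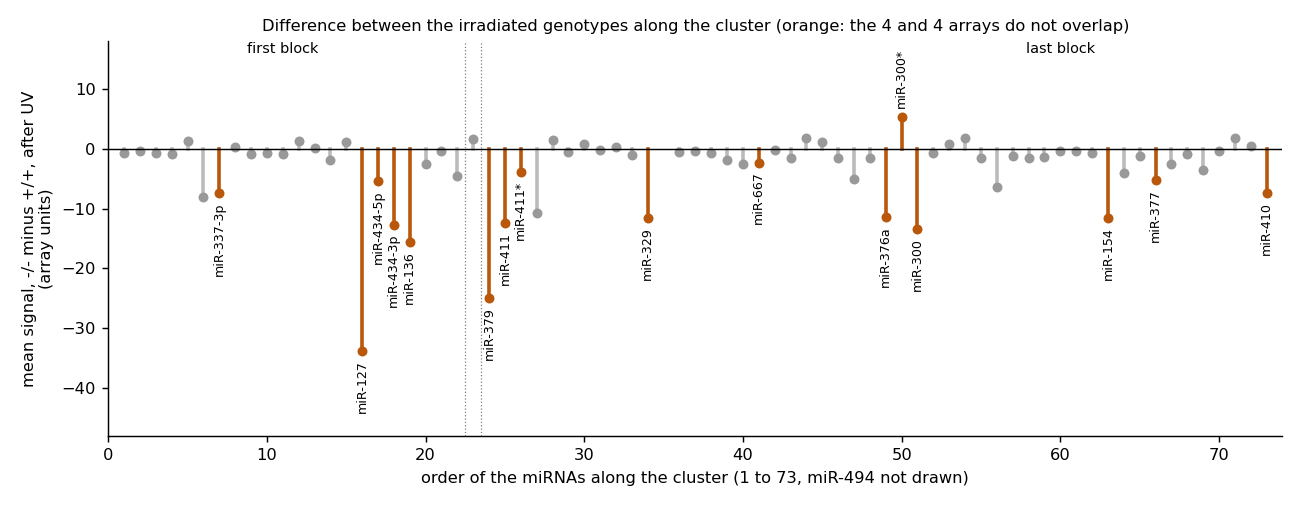
Mean normalized signal in irradiated -/- minus irradiated +/+ skin (array units) for the cluster miRNAs in genomic order, with dotted lines around miR-882 between the blocks. Orange marks the 16 members whose 4 and 4 arrays did not overlap, 15 below 0 and 1 above, in both blocks.

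After UV against no UV, in Ppard+/+ skin 18 members were higher on every irradiated array (beside 17.7% of all 577 miRNAs) and 9 were lower (beside 15.3%). In Ppard-/- skin 9 were higher (beside 19.8%) and 23 were lower (beside 17.9%). Of the 18 that were higher in Ppard+/+ skin 11 were never detected, and of the 23 lower in Ppard-/- skin 15 were never detected, so that many of these differences lay at background level on 2 slides of unequal background. miR-127, miR-300 and the adjoining hairpin of miR-434, whose 3p strand read 11.7 to 14.2 without UV and -1.27 to 3.51 after UV, were among the lower ones in Ppard-/- skin.

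Some correlations between members followed the groups, and others also held within them. Over the 16 arrays, the floored log2 values of miR-136 correlated with those of miR-379 at r = 0.93 and with those of miR-300 at r = 0.88. After the group means were taken off, these were 0.37 and 0.81, and 11 of the 16 miR-136 values stood at the floor. Between miR-127 and miR-136 r was 0.65, and 0.06 within groups. Between miR-127 and miR-379 r was 0.71, and 0.74 within groups. miR-770-3p, miR-370 and miR-134 had r = 0.72 to 0.85 between them, and 0.60 to 0.74 within groups. Among all tested miRNAs, those most like miR-127 were miR-322 (r = 0.72), miR-379 (0.71), miR-10a (0.69), miR-136 (0.65), miR-30e* (0.63), miR-300 (0.62), miR-30e (0.57), miR-338-3p (0.56), miR-143 (0.49) and miR-199b (0.42). The remaining 5 tested members had r between -0.23 and 0.25 with miR-127. These values are descriptions over 16 arrays that share groups and slides, and they carry the group difference on which the cluster was selected.

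Lists of other miRNAs give the setting of these values. Of 9 strands from other imprinted loci (miR-675 and miR-483 of H19 and Igf2, miR-335 of Mest, miR-296 and miR-298 of Gnas), 7 were never detected. The 2 tested, miR-483 and miR-296-5p, differed by 0.14 and 0.08 (log2) between the irradiated genotypes. In the 5 comparisons 0 of 2 was called, beside 0 to 29.8% of all miRNAs, and nothing is read from that count. miR-296-5p came nearest, at -0.43 after UV in Ppard+/+ skin (limma adjusted p = 0.0506). The keratinocyte list (the miR-200 family, miR-203 and miR-205) had 8 of 12 strands detected on all 16 arrays. Which cells of the skin carry the cluster was not measured, and sums over lists of cell-type markers are given as a description. The summed signal of the 8 strands of the fibroblast list (miR-143, miR-145, miR-199a, miR-199b and miR-214), of which 1 was never detected, was 6524 to 6875 in irradiated Ppard+/+ and 5246 to 6059 in irradiated Ppard-/- skin, without overlap, and 5711 to 7280 and 5275 to 6661 without UV. Within each genotype these fibroblast sums overlapped between UV and no UV. The skeletal muscle list, with 3 of 8 strands never detected, overlapped after UV at 22097 to 26220 in Ppard+/+ and 19643 to 24710 in Ppard-/- skin. Without UV its sums were 20565 to 41421 and 40891 to 50707, in that order. Between UV and no UV these muscle sums overlapped in Ppard+/+ skin. In Ppard-/- skin they were lower after UV without overlap. The keratinocyte sums after UV were 26317 to 32028 and 29569 to 43325, in each genotype higher than without UV and without overlap. The leukocyte sums (miR-142, miR-150, miR-155 and miR-223) overlapped after UV, at 2991 to 3585 in Ppard+/+ and 2401 to 3113 in Ppard-/- skin. So did those of endothelium (miR-126), at 2251 to 2633 and 2244 to 2288, and erythrocytes (miR-451 and miR-144), at 820 to 2131 and 700 to 2031. The part of the fibroblast and muscle differences in the cluster's lower signals was not tested.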

How the data were processed

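Total RNA of dorsal skin was hybridised to 1-colour Agilent miRNA arrays, and the authors deposited the scanner output of Agilent Feature Extraction 9.5.3.1 for each array, with intensity values per spot and per miRNA, beside a table of their own normalized log2 values. The deposited intensity used here was the total gene signal per miRNA, summed by the software over 20 spots per cluster miRNA after background subtraction. Detection was the software's own flag. In the deposited log2 table, used only as an alternative, scale and floor are not given in the sources used here.

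Signals were quantile normalized over the 16 arrays, raised to a floor (19.4: the 5th percentile of detected signals was taken on each array, then the median) and taken to log2. A group-means model was fitted with limma 3.58.1 (R 4.3.3) to 228 miRNAs, those with detection on every array of some group, with Benjamini-Hochberg adjustment over the 228. The script was tested on simulated data. The number of arrays limits the precision. The labels do not say whether replicates are separate animals, so p-values measure the spread between samples. Where whole groups stood at the floor, SEs and p-values understate that spread. Replicate numbers came with correlations of -0.35 to 0.38 between same-numbered arrays (15 of 24 over 0.1) and did not pair the samples. Coordinates are those of the array files (mm9). Sequences were matched by name and arm to RefSeq for 66 of 73 members. Cluster members, lists and rules were chosen with earlier results of these data known. Named with values on every array were the 7 marker miRNAs (miR-127, miR-136, miR-379, miR-300, miR-487b, miR-494 and miR-370) and any member called in any comparison. All 7 passed the detection filter, so a planned permutation test for undetected markers was not needed. Alternatives were other scalings, filters and floors, slide row, the methods' threshold, the replicate block and leaving out each array. Non-overlap counts and signal sums under other scalings were added after seeing the data.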

Additional observations from a re-analysis of the deposited data

Results flagged for a closer look

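miR-127 on 1 irradiated Ppard+/+ array read 66.2, far above the other 3 of its group, which read 50.4 to 52.8. miR-136 on 1 non-irradiated Ppard+/+ array read 4.70, far below the other 3, which read 12.8 to 14.0. These came from 36 groups of 4 arrays examined (9 tested members in 4 groups), and chance alone marks about 1 group in 20.

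The UV effect in Ppard+/+ minus that in Ppard-/- skin was 1.45 for miR-127, 0.68 for miR-136 and 0.99 for miR-379 on the log2 scale, the 3 members for which the fit across all miRNAs called this difference. The cluster was selected with these calls known, so they are listed as values only.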

How the results depend on the processing

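The lower signals of miR-127, miR-136 and miR-379 in irradiated Ppard-/- skin kept their direction under all alternatives that could test them, and all 3 calls held whichever array was left out. Besides the losses below, miR-136 lost its call with a floor of 1 and in the authors' series table, and miR-379 with a floor of 1. Counts of called members moved by over 1.5 times as follows, with calls among all miRNAs tested in brackets (228 tested unless stated). Between the irradiated genotypes 3 were called (5), against 1 with normexp background correction (4) and 1 with slide row as a covariate (1). With slide row the 1 was miR-136, whose row term was 0. Among miRNAs detected on all 16 arrays 0 were called (0 of 167), where only miR-487b and miR-494 could be tested. Between the non-irradiated genotypes 0 were called (0), against 4 without normalization (111). For UV in Ppard+/+ skin the count of 3 (37) became 5 with normexp (58). It was also 5 without a filter (45 of 233) and with a floor of 1 (56). It became 6 in the authors' series table (58) and 1 among miRNAs detected on all 16 arrays (35 of 167). For UV in Ppard-/- skin the count of 4 (68) became 2 (55) with upper-quartile scaling over commonly detected miRNAs, those on every array. With upper-quartile scaling over all miRNAs it was 1 (54), and among miRNAs detected on all 16 arrays 1 (57 of 167). It was 0 with slide row as a covariate (31) and with only the 2 groups compared (27). It was also 0 at the methods' threshold. For the difference between the UV effects the count of 3 (5) became 7 without normalization (138). It was 0 with upper-quartile scaling over commonly detected miRNAs (0), with normexp (0) and with slide row as a covariate (0). Among miRNAs detected on all 16 arrays it was 0 as well (0 of 167). With the replicate number as a block, the counts became 1 (61) for UV in Ppard-/- skin and 1 (1) for the difference between the UV effects. These were miR-127 and miR-136, in that order, and the other counts of members were the same. Leaving out 1 array gave 0 to 0 calls without UV, 3 to 4 between the irradiated genotypes, 2 to 5 for UV in Ppard+/+ skin, 0 to 4 for UV in Ppard-/- skin and 1 to 3 for the difference between the UV effects. Apart from the narrower sets of miRNAs or samples, the cause was not tested.

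Members without overlap, Ppard-/- against Ppard+/+ without UV, became 2 higher with upper-quartile scaling over all miRNAs, beside 23 of all 577. Without normalization 3 were higher, beside 67 of 577. The 1 lower member became 0 with upper-quartile scaling over commonly detected miRNAs, over all miRNAs and without normalization (beside 10, 6 and 0 of 577). After UV the 1 higher member became 0 without normalization (beside 4 of 577). For UV in Ppard-/- skin the 9 higher became 5 with upper-quartile scaling over commonly detected miRNAs (beside 80 of 577). Without normalization they became 4 (beside 57 of 577). The ratio of summed signals without miR-494 between the irradiated genotypes ranged from 0.194 without normalization to 0.597 with negative signals at 0, and from 0.356 to 0.404 when 1 array was left out. Without normalization the median of all tested miRNAs shifted by 0.52, -0.25, 0.21 and -0.48 for the genotypes without UV, the genotypes after UV, UV in Ppard+/+ and UV in Ppard-/- skin. With upper-quartile scaling over commonly detected miRNAs, the shift for UV in Ppard+/+ skin was -0.10.

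In the 3 tested comparisons, only log2 differences that had missed the threshold turned their sign. For the genotypes without UV, upper-quartile scaling over commonly detected and over all miRNAs gave -0.032 and -0.040 for miR-127, 0.10 and 0.13 for miR-379 and -0.027 and -0.035 for miR-487b. Without normalization miR-134 gave 0.48, miR-379 0.32 and miR-494 0.42, and with normexp miR-134 gave 0.11 and miR-379 0.062. For UV in Ppard+/+ skin miR-134 gave 0.021 with normexp and miR-494 -0.076 with upper-quartile scaling over commonly detected miRNAs. For UV in Ppard-/- skin miR-136 gave -0.0040 with upper-quartile scaling over all miRNAs, -0.077 without normalization and -0.0029 with normexp. miR-379 gave -0.024 and -0.073 with the upper-quartile scalings and -0.23 without normalization, where miR-494 gave -0.16. Leaving out 1 array turned 18 more such values. For the genotypes without UV these fits ranged from -0.083 to 0.28 for miR-127, -0.22 to 0.058 for miR-134, -0.11 to 0.041 for miR-379, -0.15 to 0.15 for miR-487b and -0.43 to 0.33 for miR-494. For UV they ranged from -0.25 to 0.47 for miR-494 in Ppard+/+ and from -0.0043 to 0.058 for miR-136 in Ppard-/- skin.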
